A study of Mus musculus with 10 samples.

Results

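The cell cycle and DNA replication genes described here are 39 genes chosen by name, split into 15 that act in DNA replication and 24 that act in mitosis. Each gene was read from 1 probe set of a mouse expression array, the one with the highest mean over the arrays among probe sets annotated to exactly 1 gene. This gave values for 38 of the 39 genes, out of 18193 genes measured in this way. Ccnb1, which encodes the mitotic cyclin B1, had no such probe set in the annotation used and has no value. The arrays measured RNA of glomeruli, the filtering units of the kidney, isolated from 10 male mice aged 27 days that had not been weaned. Of these, 5 were heterozygous knock-ins for the R394W allele of Wt1 (Wt1 +/R394W, called mutants) and 5 were wild-type littermates (Wt1 +/+). All came from generation 4 of a backcross to FVB/N, and the donor strain is not given in the sources used here. The mutants had little protein in the urine and mesangia that looked normal by light microscopy, and R394W is a change found in Denys-Drash syndrome, a childhood kidney disease. Beads perfused through the heart served to isolate the glomeruli, and each mouse gave 1 array.

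Cells that divide switch on 2 waves of genes. In the first, E2F transcription factors released from the retinoblastoma protein raise genes that load and fire replication origins (the Mcm2 to Mcm7 helicase subunits, the loaders Cdc6 and Cdt1, the Gins2 subunit), supply nucleotides (Rrm1, Rrm2, Tyms), clamp the polymerase (Pcna) and drive S phase (Ccne1, Ccne2). In the later wave, B-MYB and FOXM1 together with the MuvB complex act on promoters with a short element called the cell cycle genes homology region (CHR) and raise genes of the spindle, the kinetochore and mitotic exit. Adult podocytes, the epithelial cells of the filter in which Wt1 is expressed, have left the cell cycle, while endothelial, mesangial and parietal cells can still divide in a growing kidney. The bulk RNA cannot tell fewer dividing cells from less RNA per dividing cell.

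The promoters of the replication and mitosis genes differed in the short elements they hold, and 6 are printed to show examples of each kind: 3 helicase subunit genes and 3 genes of mitosis. Sequences are those of RefSeq (GRCm38.p6), which listed a promoter for 12 of the 15 replication genes and 19 of the 24 mitosis genes, and not for Ccne2, Gins2, Mcm4, Aurkb, Ccna2, Foxm1, Kif20a and Tpx2. Of several promoters of a gene the first listed was used. The search used windows of 300 bases, 250 before and 50 after the start of the gene, and the last 210 bases of 6 windows are shown, 5′ to 3′ on the strand of the gene. Capitals mark matches, on either strand, to E2F (TTT, then 2 letters each C or G, then CGC), to CCAAT, or to the CHR (TTTGAA or TTCGAA). Matches of the E2F pattern overlap each other in Mcm5 and Mcm6.
Mcm3: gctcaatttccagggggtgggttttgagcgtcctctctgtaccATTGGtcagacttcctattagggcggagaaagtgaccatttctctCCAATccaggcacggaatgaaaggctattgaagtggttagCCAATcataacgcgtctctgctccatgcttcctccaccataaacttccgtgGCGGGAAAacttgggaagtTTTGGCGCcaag
Mcm5: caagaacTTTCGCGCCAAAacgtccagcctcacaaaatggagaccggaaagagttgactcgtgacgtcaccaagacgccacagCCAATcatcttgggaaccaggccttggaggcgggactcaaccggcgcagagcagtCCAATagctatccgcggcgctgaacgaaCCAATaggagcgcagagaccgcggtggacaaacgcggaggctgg
Mcm6: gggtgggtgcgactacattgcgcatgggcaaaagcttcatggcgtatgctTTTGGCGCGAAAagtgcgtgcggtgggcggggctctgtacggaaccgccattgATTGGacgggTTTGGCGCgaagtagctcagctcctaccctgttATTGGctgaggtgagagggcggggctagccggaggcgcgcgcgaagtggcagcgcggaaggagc
Cdk1: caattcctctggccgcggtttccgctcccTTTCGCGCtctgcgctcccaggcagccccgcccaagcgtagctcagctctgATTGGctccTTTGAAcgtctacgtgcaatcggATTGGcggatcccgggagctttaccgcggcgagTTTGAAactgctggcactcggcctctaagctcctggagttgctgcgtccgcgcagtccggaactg
Ccnb2: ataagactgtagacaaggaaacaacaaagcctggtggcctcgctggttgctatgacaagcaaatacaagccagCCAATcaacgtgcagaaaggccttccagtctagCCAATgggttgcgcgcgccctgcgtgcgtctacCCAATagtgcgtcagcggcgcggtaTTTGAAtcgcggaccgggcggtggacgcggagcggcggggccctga
Cdc20: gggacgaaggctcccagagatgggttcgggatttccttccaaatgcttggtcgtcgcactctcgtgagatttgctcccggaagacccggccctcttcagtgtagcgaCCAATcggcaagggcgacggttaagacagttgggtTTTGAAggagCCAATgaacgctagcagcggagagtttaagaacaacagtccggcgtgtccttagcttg

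These windows lie at chr1:20820263-20820472 (minus strand) for Mcm3, chr8:75109349-75109558 (plus strand) for Mcm5, chr1:128359656-128359865 (minus strand) for Mcm6, chr10:69352863-69353072 (minus strand) for Cdk1, chr9:70421505-70421714 (minus strand) for Ccnb2 and chr4:118437294-118437503 (minus strand) for Cdc20. Mcm6 holds 3 E2F matches, the nearest with its first base 47 bases before the gene start. Mcm3 and Mcm5 hold 2 each, and none of these 3 helicase windows holds a CHR. The 2 replication promoters that do hold one are also of helicase genes and are not printed: Mcm2, with a CHR 70 bases before the start and no E2F match, and Mcm7, with a CHR 173 bases before the start beside 2 E2F matches. Ccnb2 has a CHR 4 bases after the start, behind CCAAT boxes 87, 54 and 21 bases before it. A further Ccnb2 CHR, 167 bases before the start, lies in the search window but outside the printed bases. Cdc20 has a CHR 18 bases before the start. Cdk1 carries both kinds, an E2F match 131 bases before the start and CHR matches 71 and 15 bases before it.

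An E2F match was found in 6 of 12 replication promoters (50%) and in 1 of 19 mitosis promoters (5.26%), where 2.32% of all 27025 promoters of that length hold one. The CHR was found in 2 of 12 replication promoters (16.7%) and in 14 of 19 mitosis promoters (73.7%), against 19.4% of all promoters. All 14 of those mitosis promoters also held a CCAAT box, a pairing present in 7.70% of all promoters. CCAAT, with or without a CHR, was found in 8 replication and 16 mitosis promoters, and in 37.9% of all promoters. Further genes of the same pathway, from lists given later, split the same way: the CHR was in 35 of 49 promoters of another mitosis list (71.4%) and 8 of 37 of another replication list (21.6%), and the E2F pattern in 5 (10.2%) and 9 (24.3%). These are matches of letters, not measured binding, and the absence of a match says only that these letters are not in the window.

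The values are log2 expression values made by RMA, a method that corrects background, equalises arrays and summarises the probes of each probe set. A difference of 1 is 2-fold, and values of different genes are not compared with each other, since probes differ in brightness. The filter on low signal used here asks for more than the median of all values (6.35 on the log2 scale) in at least 5 arrays, and 11519 of 18193 genes passed it. All 10 measured podocyte markers and all 13 endothelial markers of the labelled tissue passed, but so did 15 of 16 proximal tubule and 12 of 15 distal nephron markers, so passing does not set glomeruli apart from tubules. The filter was passed by 36 of the 38 cell cycle genes, and not by Tyms and Cdc6. Array medians lay within 0.0817 of each other, and correlations between arrays ran from 0.985 to 0.997.

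The cell cycle genes moved up and down together from mouse to mouse, with a pair of mutants highest and the lowest mice in both genotypes. Mutant 5 had the highest value of the 10 mice in 37 of the 38 genes, where the same array was highest for 16.3% of all genes. Mutant 4 came directly below it in 35 of those genes, an order seen in 2.87% of all genes. The lowest value fell in wild type 2, mutant 1 or wild type 3 in 36 of 38 genes, against 29.1% of all genes. The difference between the highest and the lowest mouse had a median of 1.63 over the cell cycle genes, a 3.10-fold range, and of 0.44 over all genes. It exceeded 1 on the log2 scale in 33 of the 38 genes (86.8%) and in 8.70% of all genes. The SD within genotypes had a median of 0.51 for the cell cycle genes and 0.13 for all genes. These shares describe the arrays, and the genes are not independent of each other. The mice named were picked by their place in these same genes, so the shares are no test of that order.

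**Figure D1:**
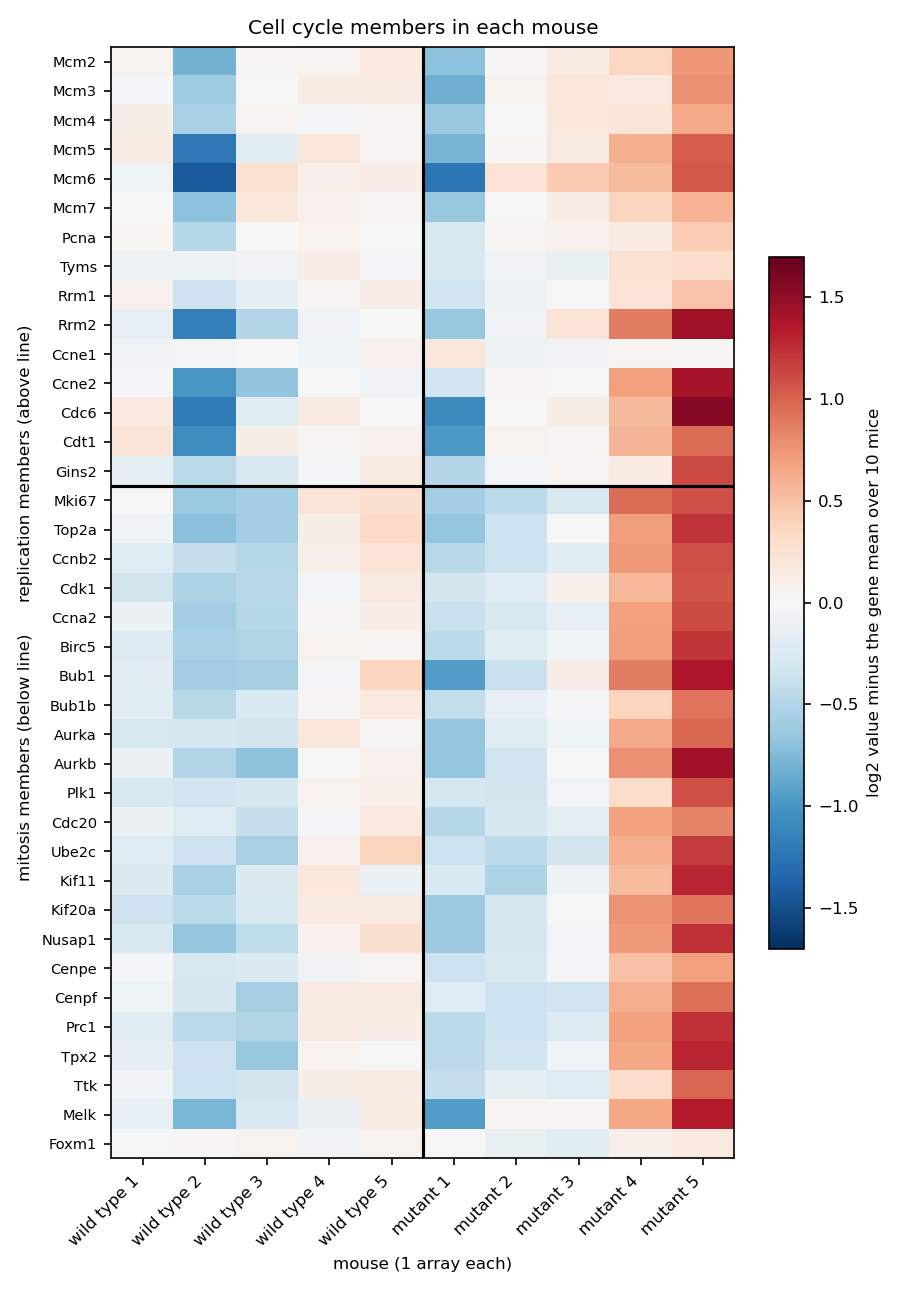
Log2 value of each of 38 cell cycle genes (rows) in each of 10 mice (columns) minus the mean of that gene over all mice, red for above and blue for below, with 15 replication genes above the horizontal line and 23 mitosis genes below it. The column of mutant 5 is the highest in 37 genes, while wild type 2 and mutant 1 are blue in most.

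No cell cycle gene differed between the genotypes beyond the spread between mice. In the limma fit over all 45037 probe sets, 0 of 38 genes passed an adjusted p of 0.05 (Benjamini-Hochberg), where 1.26% of all genes did (0.566% higher in mutants), and adjusted p-values ran from 0.525 to 0.938. An unadjusted p under 0.05 was reached by 1 gene, Ccne2, against 11.0% of all genes. In none of the 38 did the genotypes separate, as they did in 3.67% of all genes. Differences are mutant minus wild type throughout, with n = 5 mice each. The difference was positive in 37 of 38 genes, where 51.7% of all genes were positive. Its median was 0.21 for the 15 replication genes and 0.31 for the 23 mitosis genes, against 0.0043 for all genes. The medians depended on mutant 5 and, for replication, on wild type 2. Without mutant 5 they were 0.054 for replication and 0.089 for mitosis, with 34 positive genes (50.5% of all genes). Without wild type 2 they were 0.042 and 0.25. Without mutant 1 they were larger, at 0.41 and 0.49, and 6 genes had an unadjusted p under 0.05 (12.1% of all genes) but none an adjusted one (1.04% of all genes).

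**Figure D2:**
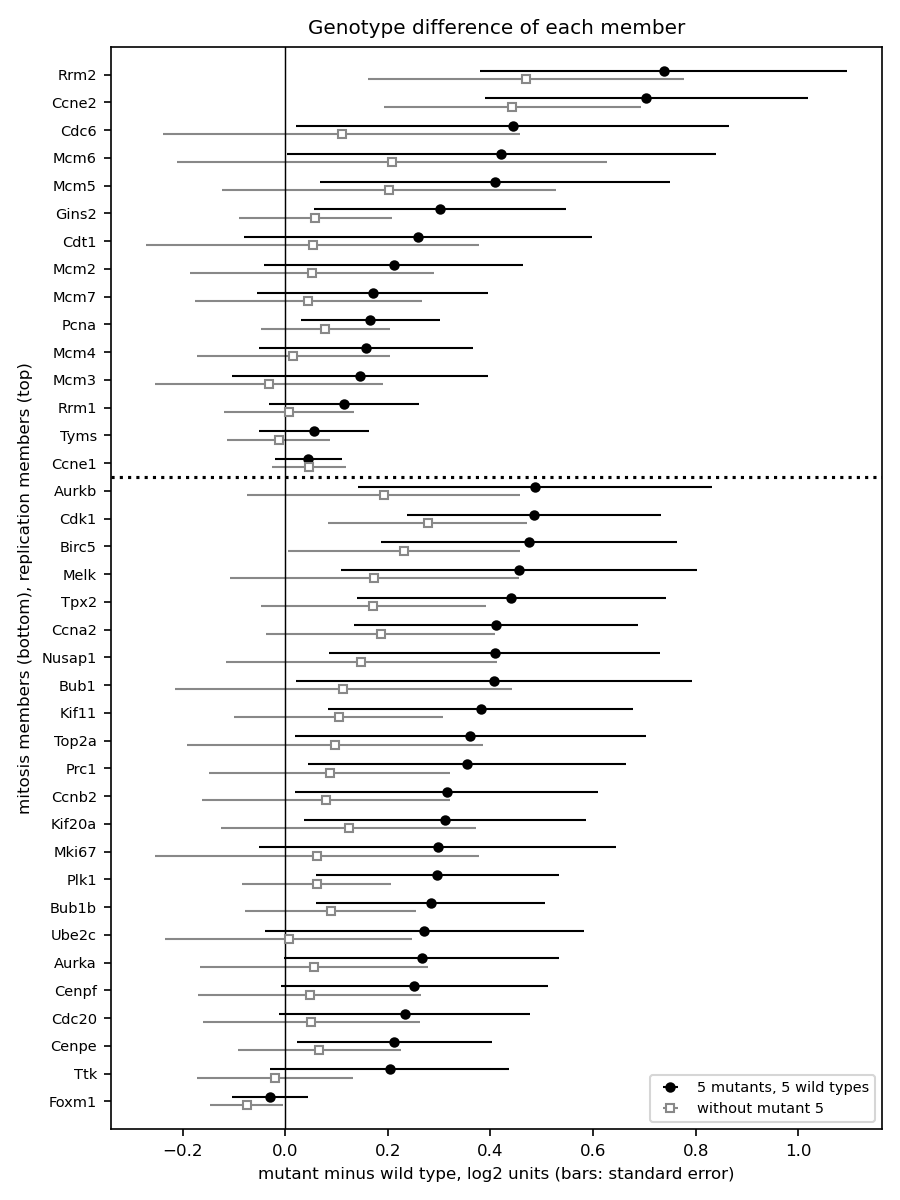
Mutant minus wild-type difference of each gene in log2 units with its standard error from the limma fit, for all 10 mice (filled circles) and without mutant 5 (open squares); replication genes are above the dotted line. With all mice 37 of 38 points lie right of 0, between -0.029 (Foxm1) and 0.74 (Rrm2), and the open squares lie nearer to 0 in all genes but Ccne1 and Foxm1.

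Among the genes that supply nucleotides, Rrm2, the S-phase subunit of ribonucleotide reductase, had the largest difference. It read 8.41, 7.39, 8.05, 8.49 and 8.55 in wild types 1 to 5 and 7.90, 8.49, 8.78, 9.41 and 9.99 in mutants 1 to 5. Mutants 3, 4 and 5 lay above every wild type, but mutants 1 and 2 lay among them, so the genotypes overlapped. The difference was 0.74 ± 0.36 (SE; limma, adjusted p = 0.573), or 1.67-fold, and it was 0.47 ± 0.31 (SE) without mutant 5. The 2 other probe sets of Rrm2 gave 0.81 ± 0.37 (SE) and 0.73 ± 0.34 (SE), with adjusted p-values of 0.528 and 0.562. Rrm1, the large subunit of the same enzyme, was steadier, between 9.00 and 9.46 in wild types, between 9.02 and 9.85 in mutants and a difference of 0.12 ± 0.15 (SE). Tyms, thymidylate synthase, read from 4.21 to 4.77 over all mice by its brightest probe set, and all 4 of its probe sets lay below the filter on low signal. The others had mutant 1, wild type 3 and wild type 4 as the highest mouse, with differences of 0.12, -0.041 and -0.042.

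Ccne2, cyclin E2, was the gene with the smallest p in the set. Its values were 6.34, 5.39, 5.71, 6.37 and 6.32 in wild types and 6.04, 6.39, 6.37, 7.07 and 7.77 in mutants. These lie near the filter on low signal. Wild types 1, 2, 3 and 5 and mutant 1 were below its median of 6.35, so Ccne2 passed in just the 5 arrays needed. All mutants but mutant 1 lay above the highest wild-type value of 6.37 or level with it, while wild types 2 and 3 were lowest. The difference was 0.70 ± 0.32 (SE, limma, adjusted p = 0.525, unadjusted p = 0.0466), and without mutant 5 it was 0.44 (unadjusted p = 0.106). Ccne1, cyclin E1, had the smallest difference of the replication genes, 0.045 ± 0.065 (SE). It read 6.992, 7.003, 7.051, 6.979 and 7.133 in wild types and 7.242, 6.972, 6.998, 7.101 and 7.071 in mutants, and it was the only measured gene of the set in which mutant 5 was not the highest. Its second probe set, with a mean of 6.53, had mutant 5 highest at 6.94 and a difference of 0.22 ± 0.096 (SE, limma, adjusted p = 0.496). The probe sets of Ccne1 thus differ in whether they show the shared order of mice.

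The 6 subunits of the MCM helicase, which unwinds DNA at the fork, differed in size but had the same low mice. Mcm2 read 9.52, 8.66, 9.48, 9.51 and 9.63 in wild types and 8.76, 9.48, 9.59, 9.81 and 10.21 in mutants. Wild type 2 and mutant 1 lay well below the other mice, and mutant 5 above all of them. The genotype difference of Mcm2 was 0.21 ± 0.25 (SE, limma, adjusted p = 0.856). Mcm6 had the widest range of the helicase genes, from 7.70 in wild type 2 to 10.20 in mutant 5, a 5.64-fold span, with 7.91 in mutant 1 and 9.05 to 9.67 in the other mice. Its difference between genotypes was 0.42 ± 0.42 (SE). Mcm5, with a difference of 0.41 ± 0.34 (SE), spanned 4.73-fold, and Mcm3, Mcm4 and Mcm7 spanned 3.05-fold, 2.44-fold and 2.44-fold.

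The loaders that place this helicase on origins spread as widely. Cdc6 had the widest range in the set, from 5.05 in wild type 2 to 7.80 in mutant 5, a 6.76-fold span. Cdt1 ran from 7.72 in wild type 2 and 7.79 in mutant 1 to 9.72 in mutant 5. Their genotype differences were 0.44 ± 0.42 (SE) and 0.26 ± 0.34 (SE), smaller than or close to their errors. Gins2, a subunit of the GINS complex that activates the helicase, read 7.52, 7.23, 7.42, 7.66 and 7.83 in wild types and 7.18, 7.64, 7.74, 7.81 and 8.81 in mutants. Mutant 5 stood alone at the top, the other 4 mutants lay within or just below the wild-type range, and the difference went from 0.30 ± 0.25 (SE, limma, adjusted p = 0.778) to 0.059 without mutant 5. Pcna, the sliding clamp of the polymerases, spread less than most of the replication genes, with a 1.90-fold range. It read 12.55, 12.02, 12.50, 12.57 and 12.50 in wild types and 12.24, 12.55, 12.58, 12.65 and 12.94 in mutants, again with wild type 2 and mutant 1 lowest and mutant 5 highest, and a difference of 0.17 ± 0.14 (SE, limma, adjusted p = 0.780).

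**Figure D3:**
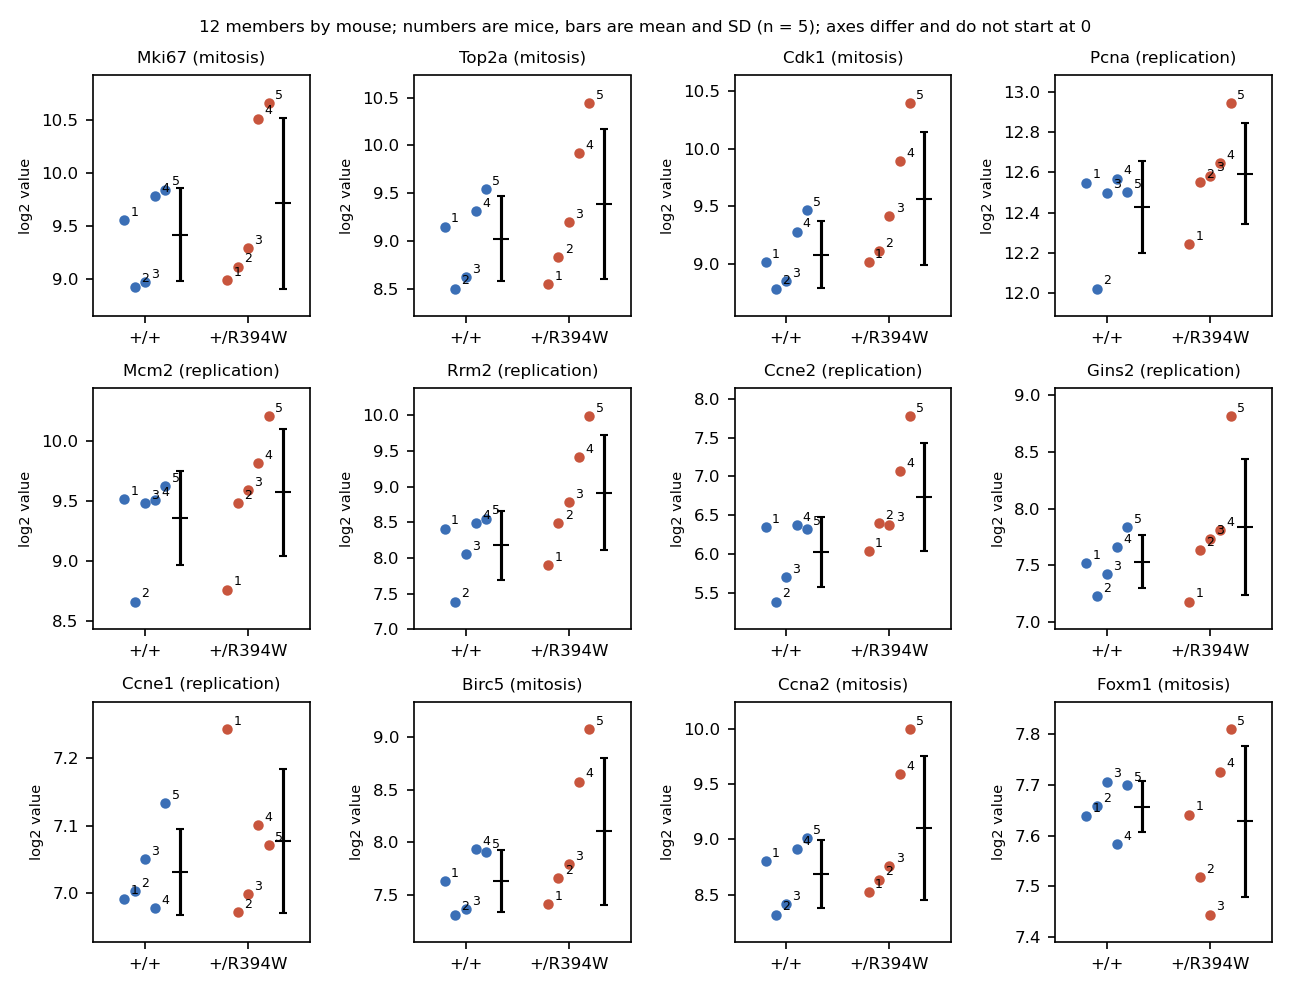
Log2 values of 12 genes in each mouse (points, numbered by mouse) with the mean and SD of each genotype (n = 5; black); the axes differ between panels and do not start at 0. Mutant 5 is the highest point in every panel except Ccne1, wild type 2 and mutant 1 are low in most panels, and in every panel the genotypes overlap.

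Mki67, which encodes the proliferation antigen Ki-67, did not differ between the genotypes beyond its spread. It read 9.55, 8.93, 8.97, 9.78 and 9.84 in wild types and 8.99, 9.12, 9.29, 10.51 and 10.65 in mutants. Mutants 4 and 5 lay above every wild type, and mutants 1, 2 and 3 lay between the lowest and the middle wild types. The mean was 9.42 ± 0.44 (SD, n = 5) in wild types and 9.71 ± 0.80 (SD, n = 5) in mutants, a difference of 0.30 ± 0.35 (SE, limma, adjusted p = 0.852), and 0.062 without mutant 5. Top2a, the topoisomerase that untangles replicated chromosomes, followed with 9.15, 8.50, 8.62, 9.31 and 9.55 in wild types and 8.55, 8.84, 9.20, 9.92 and 10.44 in mutants. Its difference was 0.36 ± 0.34 (SE, limma, adjusted p = 0.813). Both of these genes thus show mutants 4 and 5 at the top, and wild types 2 and 3 with mutant 1 at the bottom.

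Of the genes that drive entry into mitosis, Cdk1, the mitotic kinase, had the smallest p of the mitosis genes. It read 9.01, 8.78, 8.85, 9.28 and 9.47 in wild types and 9.01, 9.11, 9.41, 9.89 and 10.39 in mutants. The difference was 0.49 ± 0.25 (SE, limma, adjusted p = 0.594), a 1.40-fold one, and 0.28 ± 0.19 (SE) without mutant 5. Ccna2, cyclin A2, which pairs with Cdk2 and Cdk1, read 8.80, 8.32, 8.41, 8.92 and 9.01 in wild types and 8.52, 8.64, 8.76, 9.59 and 9.999 in mutants. Only mutants 4 and 5 exceeded the wild types, and the difference was 0.41 ± 0.28 (SE, limma, adjusted p = 0.717). Ccnb2, cyclin B2, showed the same picture, with wild types from 8.16 to 8.88, mutants 1 to 3 from 8.17 to 8.44, and mutants 4 and 5 at 9.37 and 9.74. Plk1 and Aurka, kinases of the spindle poles, differed by 0.30 ± 0.24 (SE) and 0.27 ± 0.27 (SE).

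Foxm1, a transcription factor of the mitotic wave, was the exception among the mitosis genes and the only one with a negative difference, -0.029 ± 0.075 (SE, limma, adjusted p = 0.938). By its brightest probe set it read 7.64, 7.66, 7.71, 7.58 and 7.70 in wild types and 7.64, 7.52, 7.44, 7.73 and 7.81 in mutants, a narrow range of 0.37 in which mutants 5 and 4 were still the highest mice. Another Foxm1 probe set, with a mean of 6.80, read 6.38, 6.68, 6.42, 6.86 and 6.78 in wild types and 6.63, 6.59, 6.83, 7.08 and 7.74 in mutants. That probe set also had mutants 5 and 4 at the top, with a wider range of 1.37 and a difference of 0.35 ± 0.20 (SE, limma, adjusted p = 0.659). These 2 probe sets thus shared the highest mice and differed in range and in the sign of the genotype difference. Foxm1 had 4 probe sets in all. The second-brightest also had mutants 5 and 4 highest, at 7.68 and 7.52, and a positive difference of 0.15 ± 0.083 (SE). The weakest, below the filter on low signal, did not share this order. It read 3.44 in mutant 4 but 3.13 in mutant 5, with a difference of 0.0037.

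Genes of the kinetochore, the spindle checkpoint and the chromosomal passenger complex followed the same order of mice. Birc5, the survivin subunit of the passenger complex, read 7.63, 7.31, 7.36, 7.93 and 7.91 in wild types and 7.41, 7.66, 7.79, 8.58 and 9.08 in mutants. Mutants 4 and 5 were above all wild types and mutants 1 to 3 among them, with a difference of 0.48 ± 0.29 (SE, limma, adjusted p = 0.681). Aurkb, the kinase of that complex, had the largest difference of the mitosis genes, 0.49 ± 0.35 (SE), between 6.44 and 7.21 in wild types and between 6.48 and 8.56 in mutants. The checkpoint genes Bub1, Bub1b and Ttk differed by 0.41 ± 0.39 (SE), 0.28 ± 0.22 (SE) and 0.20 ± 0.23 (SE). The kinetochore genes Cenpe, a motor, and Cenpf differed by 0.21 ± 0.19 (SE) and 0.25 ± 0.26 (SE). Bub1 had the widest range of the mitosis genes, 5.03-fold from mutant 1 (6.30) to mutant 5 (8.62).

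The spindle and exit genes were no different. Differences were 0.38 ± 0.30 (SE) for Kif11, the motor that separates spindle poles, 0.31 ± 0.27 (SE) for Kif20a and 0.35 ± 0.31 (SE) for Prc1, both of the central spindle, and 0.44 ± 0.30 (SE) for Tpx2 and 0.41 ± 0.32 (SE) for Nusap1, which bind spindle microtubules. For Cdc20 and Ube2c, an activator and an E2 enzyme of the anaphase-promoting complex, they were 0.23 ± 0.24 (SE) and 0.27 ± 0.31 (SE). For Melk, a kinase raised in dividing cells, it was 0.46 ± 0.35 (SE). In all 23 mitosis genes mutant 5 was the highest mouse and mutant 4 the next, and both lay above every wild type. Mutants 1, 2 and 3 lay above every wild type in 0 of 23 mitosis genes. They did so in 1, 1 and 6 of 15 replication genes, and in 3169, 3055 and 3850 of all 18193 genes.

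The spread was wider among mutants than among wild types in each of the 38 genes, where the same held for 51.5% of all genes. The genes share their highest mice, so these are not 38 separate observations. Over the replication genes the mean per mouse had an SD of 0.34 (n = 5) in wild types and 0.53 (n = 5) in mutants, and over the mitosis genes of 0.27 (n = 5) and 0.66 (n = 5). Mutant 5 exceeded the wild-type mean by a median of 0.85 in replication genes (1.81-fold) and 1.31 in mitosis genes (2.48-fold). The largest excess was that of Rrm2, at 3.50-fold, and the smallest that of Ccne1, at 1.03-fold.

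Replication and mitosis genes did not rank the middle and low mice alike. As a deviation from the mean of each gene over the 10 mice, wild type 2 averaged -0.74 in replication and -0.45 in mitosis genes, and mutant 1 averaged -0.60 and -0.48. Both mice were thus low in each kind of gene. Wild type 3 averaged -0.10 in replication but -0.42 in mitosis genes, and mutant 2 averaged 0.0073 and -0.29. Set against wild type 2, wild type 3 was higher in 15 of 15 replication genes, with a median difference of 0.59 (1.51-fold), and in 15 of 23 mitosis genes, with a median difference of 0.048. Wild type 3 was below each of wild types 1, 4 and 5 in 20 of 23 mitosis genes and in 8 of 15 replication genes. Wild type 3 and mutant 2 therefore had replication genes near the average of all mice beside low mitosis genes, in either genotype. Wild type 1 (0.014 and -0.16) and mutant 3 (0.10 and -0.10) leaned the same way by less. In mutants 4 and 5 the order was the other way, with averages of 0.38 and 0.84 in replication and 0.61 and 1.08 in mitosis genes. The averages of wild type 2 and mutant 1 given above were likewise higher in mitosis than in replication genes.

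**Figure D4:**
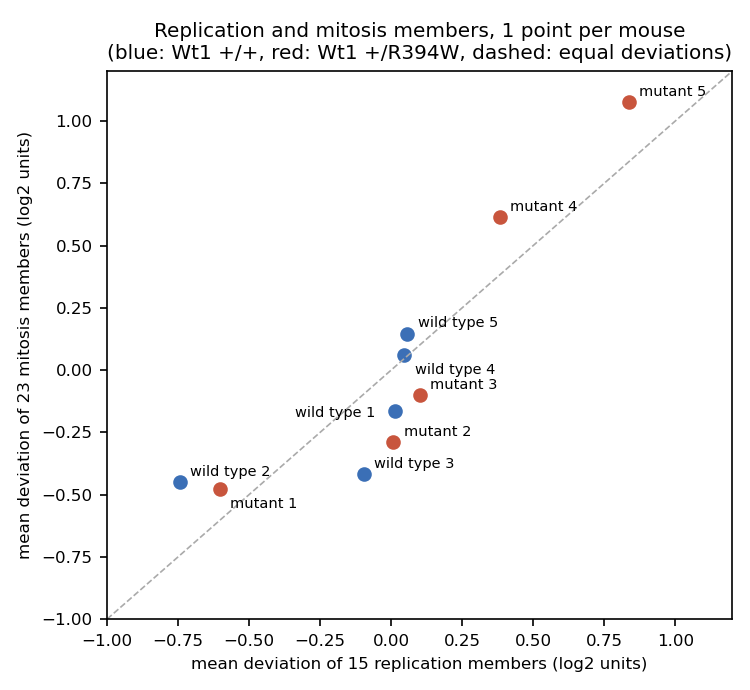
Mean deviation, in log2 units, of 15 replication genes (horizontal axis) and 23 mitosis genes (vertical axis) from their means over the 10 mice, 1 point per mouse, with the dashed line marking equal deviations. Mutants 4 and 5 lie at the top right and wild type 2 and mutant 1 at the lower left, all above the line. Wild types 1 and 3 and mutants 2 and 3 lie below the line.

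The other probe sets of these genes gave the same picture where they were bright. There were 48 of them, for 27 genes, and 0 were called in the limma fit, against 0.853% of all probe sets. An unadjusted p under 0.05 was reached by 3, all higher in mutants, where 9.36% of all probe sets reached it. All 27 above the filter on low signal had a positive difference, from 0.13 to 0.81, and mutant 5 as the highest mouse. Of the 21 below the filter, 12 were positive and 9 negative, and mutant 5 was highest in 4.

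Further genes of the same pathway shared the order of mice and were likewise not called. Of 43 measured genes of another replication list (polymerases, clamp loaders, origin recognition and related factors), 0 were called in the limma fit, 2 had an unadjusted p under 0.05 and 37 had a positive difference, with a median of 0.14. Mutant 5 was the highest mouse in 35 of them. The smallest p-values belonged to Dut, the dUTPase that keeps uracil out of DNA (0.48 ± 0.16 SE, adjusted p = 0.308), and to Rpa1 (0.22 ± 0.095 SE, adjusted p = 0.504) and Rpa3 (0.24 ± 0.11 SE, adjusted p = 0.552), subunits of the protein that coats single-stranded DNA. Of 60 measured genes of another mitosis list, 0 were called, 2 had an unadjusted p under 0.05 and 55 had a positive difference, with a median of 0.25, and mutant 5 was highest in 55. Over all genes 1.26% were called, 11.0% had an unadjusted p under 0.05 and 51.7% had a positive difference. Mutant 5 was the highest mouse in 16.3% of all genes. Without mutant 5 the medians of these lists were 0.029 and 0.10, with 27 of 43 and 43 of 60 positive (50.5% of all genes).

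The smallest p of the other mitosis list came from a gene with its own order of mice. Pttg1, the securin that holds back separase, read 8.93, 9.07, 8.99, 9.32 and 9.34 in wild types and 9.01, 11.38, 11.26, 9.54 and 9.60 in mutants. Mutants 2 and 3 stood far above all other mice, and mutants 4 and 5 only slightly above the wild types, with a difference of 1.03 ± 0.42 (SE, limma, adjusted p = 0.456). Cenph, a kinetochore gene of low signal (0.53 ± 0.24 SE, adjusted p = 0.514), and Hmgb2, a chromatin protein of dividing cells (0.48 ± 0.23 SE, adjusted p = 0.564), followed the common order, with mutant 5 highest at 6.24 and 11.15.

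A list of genes taken as brakes on the cycle ordered the mice in part differently. It also holds Lin9, Lin37, Lin52, Lin54 and Rbbp4 of the MuvB complex, which acts in the mitotic wave too. The mean of this list is therefore not a level of restraint. The mean of 24 measured brakes was 9.65 in wild type 2, the highest of the wild types, and 9.64 in mutant 1, both low in cell cycle genes. It was lowest of all mice in wild type 3, at 9.42, which was also low in mitosis genes, and highest in mutant 5, at 9.75. Of these brakes (CDK inhibitors, pocket proteins and others), 0 were called in the limma fit, where 1.26% of all genes were. An unadjusted p under 0.05 was reached by 5 with a positive difference (5.62% of all genes) and by 1 with a negative one (5.38% of all genes). The median difference of the list was 0.056. Cdkn2b, the CDK4 and CDK6 inhibitor p15, read 7.02, 7.43, 6.96, 6.95 and 6.82 in wild types and 7.54, 7.45, 7.30, 7.53 and 7.68 in mutants. Only wild type 2 reached into the mutant range, and the difference was 0.46 ± 0.11 (SE, limma, adjusted p = 0.108). Cdkn1c, the inhibitor p57 that is abundant in podocytes, lay between 13.53 and 13.86 in wild types and between 13.78 and 14.07 in mutants, with a difference of 0.26 ± 0.08 (SE, adjusted p = 0.253). E2f5, a repressive E2F, differed by -0.17 ± 0.07 (SE, adjusted p = 0.437).

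Markers of other cells were read beside these values, as glomeruli isolated on beads carry other cells along. The mean of 16 proximal tubule markers (15 above the filter) lay between 6.89 and 9.37 in wild types and between 7.06 and 10.35 in mutants, and its lowest values were those of wild type 5 and mutant 5. Mutant 4, with the second-highest cell cycle values, had the highest mean of these markers. The defining marker Lrp2 read 6.29 in mutant 5 and 9.79 in mutant 4, the pair of mice highest in cell cycle genes, and 4.87 in wild type 5. The mean of 15 distal nephron markers (12 above the filter) lay between 6.85 and 8.19 in wild types and between 6.85 and 8.21 in mutants, and Umod was again lowest in wild type 5 (9.47) and mutant 5 (9.67). With a tubule score (the mean of both lists) as a covariate, the median difference was 0.27 for replication and 0.39 for mitosis genes, 0 genes were called, and 3 had an unadjusted p under 0.05 (12.2% of all genes).

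Among blood and stromal lists, only the mesangial one was highest in mutant 5. The mean of 19 measured leukocyte markers, 9 above the filter, lay between 6.11 and 6.87 in wild types and between 6.08 and 6.61 in mutants, with 6.23 in mutant 5, and Ptprc read 7.17 there against 6.69 to 9.08 in wild types. The mean of 8 measured erythroid markers, 4 above the filter, was lowest in mutant 5 (6.20), where Alas2 read 8.09 against 8.76 to 10.27 in wild types. The mean of 12 measured mesangial and smooth muscle markers, 11 above the filter, was highest in mutant 5, at 11.01 against 10.45 to 10.75 in wild types, although only 5 of its 12 markers lay above their own mean over the mice there. The mean of 10 podocyte markers was 12.48 to 12.76 in mutants and 12.73 to 12.90 in wild types, and that of 13 endothelial markers 11.71 to 11.98 and 11.83 to 12.02, with the lowest endothelial value in mutant 5. The mean of 5 parietal markers lay between 8.83 and 9.41 in wild types and between 9.03 and 9.59 in mutants. In the limma fit 1 marker was called lower in mutants in each of the podocyte, mesangial, leukocyte and erythroid lists. These were Plce1 (adjusted p = 0.00865), Mylk (adjusted p = 0.0113), Csf1r (adjusted p = 0.022) and Slc25a37 (adjusted p = 0.0436). Of all 18193 genes, 127 were called lower. The part of any of these cells in the cell cycle values was not tested.

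**Figure D5:**
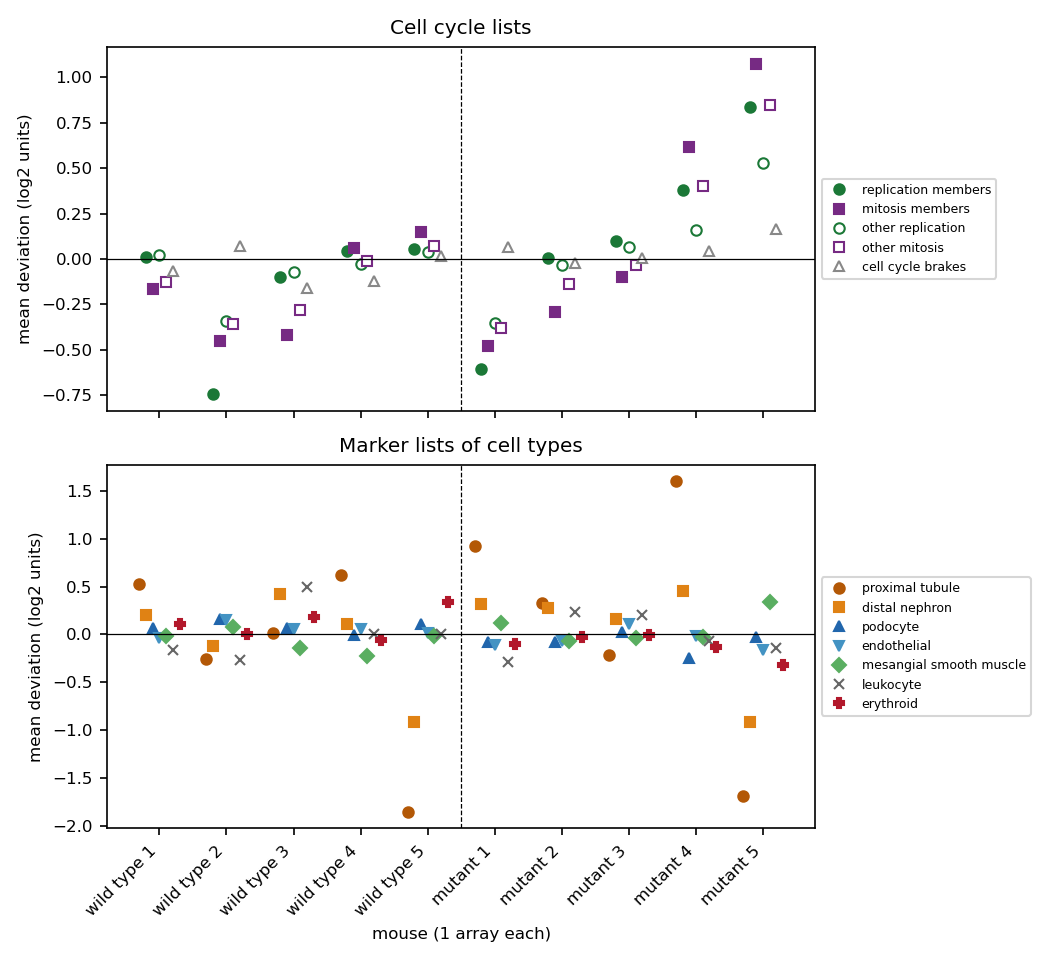
Mean deviation of gene lists from their gene means over 10 mice, in log2 units, by mouse; the upper panel shows cell cycle lists (filled symbols for the genes described here, open symbols for other lists) and the lower panel cell type markers without the parietal list. The replication and mitosis lists are highest in mutants 4 and 5, while the proximal tubule list is lowest in wild type 5 and mutant 5 and highest in mutant 4.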

How the data were processed

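RNA of isolated glomeruli from 10 mice, 5 per genotype by the labels, was measured on 1 Affymetrix array each. The deposited values, on the log2 scale, were made with RMA per the submitters' processing notes, and its settings are not known here. RMA compresses differences of weak genes. Every column matched a mouse, and 0 columns belonged to other samples. Of 45101 probe sets, 64 controls were left out and 45037 were fitted with limma (version 3.58.1, R version 4.3.3), mutant minus wild type, no covariates, two-sided, with Benjamini-Hochberg adjustment over all probe sets at 0.05. The labels do not say which mice shared a litter, so the spread measured is that between these mice.

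Each gene was the brightest of its probe sets annotated to 1 gene, which left 18193 genes. Members, lists and tests were chosen with earlier results of these data known. Genes named with values in every mouse were a fixed set (Mki67, Top2a, Cdk1, Pcna, Mcm2, Rrm2, Ccne2, and Ccnb1, which had no value), those with the 3 largest moderated t and the smallest difference in each kind, and Mcm6, Cdc6, the second Foxm1 probe set and others named for their spread after their values were seen. From each other cell cycle list the 3 smallest p-values were named.

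The same limma fit was run on simulated arrays of 45037 probe sets, with 200 altered ones drawn from all of them. It found 50.5% of shifts of 0.5, 93.5% of shifts of 1 and 100% of shifts of 2. The median SD within genotypes was 0.13 for all genes but 0.51 for the cell cycle genes. These shares therefore do not tell how often such shifts would be found in the cell cycle genes. Alternatives covered normalization, filters, variance models, probe set choice, a tubule covariate and mice left out. Leaving out wild type 5 and mutant 5 together was added after seeing the data. Figures used matplotlib (version 3.10.9).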

Additional observations from a re-analysis of the deposited data

Results flagged for a closer look

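In 128 groups of 5 mice tested for a value far from the others by Dixon's criterion, 15 were found, where chance gives about 1 in 20 groups, and the groups are not independent since genes share mice. Wild type 2 lay far below the other wild types in 9 of the replication genes. It read 8.66 in Mcm2 (where the lowest of the others was 9.48), 8.23 in Mcm3 (8.82), 9.36 in Mcm4 (9.89), 8.18 in Mcm5 (9.22), 7.70 in Mcm6 (9.05) and 9.64 in Mcm7 (10.34). It read 12.02 in Pcna (12.50), 5.05 in Cdc6 (6.04) and 7.72 in Cdt1 (8.80). The same mouse was lowest in Rpa1 at 11.00 and in Cenph at 4.45, and in the mean of the replication genes at 7.80 (8.44) and of the other replication list at 7.85 (8.12). Mutant 5 lay far below the other mutants in Umod, at 9.67 (12.46), and in the mean of the distal nephron markers, at 6.85 (7.92). No mitosis gene of the set was found in this way in either genotype.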

How the results depend on the processing

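No paired analysis was possible because the labels give no shared litter, batch or replicate number. The count of 0 called genes held under all 21 alternatives, with a lowest adjusted p of 0.292 (Rrm2 without mutant 1). An unadjusted p under 0.05 was reached by 1 of 38 genes with all mice (11.0% of all genes). The count was 0 of 36 with the filter on low signal. It was 0 of 38 with trended robust variances, with array weights and without wild type 5 and mutant 5. It was 3 of 32 when probe sets of more than 1 transcript were dropped and 2 of 27 with the second-brightest probe sets. With the tubule covariate it was 3 of 38 (12.2% of all genes). When 1 mouse was left out it ran from 0 to 6 of 38, with 6 without mutant 1 (12.1% of all genes). Shares of all genes under the other alternatives are not given here. When 1 mouse was left out, 34 to 38 genes were positive, and the median ran from 0.042 to 0.41 for replication and from 0.089 to 0.49 for mitosis genes. With array weights, the lowest of which was that of mutant 5 (0.70), the medians were 0.21 for replication and 0.23 for mitosis genes. Signs turned in 11 of 779 refits of single genes. Leaving out 1 mouse gave -0.032 to 0.37 for Mcm3, -0.013 to 0.13 for Tyms, -0.019 to 0.33 for Ttk and -0.075 to 0.017 for Foxm1. Tyms was -0.033 with wild types 2 to 4 and mutants 1 to 4 and -0.012 without wild type 5 and mutant 5. The second-brightest probe set gave -0.013 for Aurka, -0.067 for Cenpe and 0.15 for Foxm1, and the mean of its probe sets 0.12 for Foxm1. The cause of these turns was not tested. The number of arrays limits the precision.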

Other observations

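In the animal numbering of the labels, wild type 5 and mutant 5 come after all other mice. Both had the lowest tubule marker scores, 6.87 and 6.95, against 8.07 to 9.28 in the other mice, but not like cell cycle values. The mean deviation over all 38 cell cycle genes was 0.11 in wild type 5 and 0.98 in mutant 5. Wild type 2 and mutant 1, both low in each kind of gene, directly follow each other in this numbering. So do wild type 3 and mutant 2, which had low mitosis genes beside replication genes near the average. Mutant 4 stands between mutant 3 and wild type 4 in the numbering but was higher, at 0.52 against -0.020 and 0.054. A link between the numbering and the cell cycle values was not tested.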
